A study of Mus musculus with 4 samples.

Results

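FGF/ERK feedback and response genes were examined in wild-type and Cripto knockout mouse embryonic stem cells kept in serum/LIF or moved to FGF and Activin. The set was chosen by name, with earlier results of these data known. It holds 10 genes, 3 Sprouty genes (Spry1, Spry2, Spry4), 2 Spred genes (Spred1, Spred2), the phosphatase genes Dusp4 and Dusp6, and the transcription factor genes Etv4, Etv5 and Egr1. All 10 were among the 37620 genes of the count table, and all 10 were among the 15462 genes that passed the authors' filter on low counts. RNA-seq was run on R1 embryonic stem cells (ESCs) of the 129/Sv strain, either wild type (WT) or lacking Cripto, the Nodal co-receptor encoded by Tdgf1 (Cripto KO). Serum/LIF cells were maintained in serum with leukaemia inhibitory factor. F/A cells had spent 6 days, from a low-density seeding, in N2B27 medium with bFGF and Activin A at 20 ng/ml, and the labels call them epiblast stem cells (EpiSCs). Each of the 4 conditions had 1 library, so the spread between cultures was not measured and no difference between conditions could be tested. The study used more than 1 Cripto KO clone, and the labels do not say which was sequenced. The intervals given are 95% exact Clopper-Pearson intervals, which cover counting error alone. They belong to the ratio of raw counts scaled to library totals, so they need not be centred on the ratio of normalized values printed before them.

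Library totals ranged from 15230856 to 17315442 counts. Tdgf1 had 18714 raw counts in serum/LIF WT, 1572 in F/A WT, 945 in serum/LIF Cripto KO and 86 in F/A Cripto KO, which after normalization put Cripto KO at 5.72% of WT in serum/LIF and 5.62% in F/A. The F/A Cripto KO library stood apart, since 3 of its detected genes (0.0160%) had an odd count against 53.1% to 53.6% in the other libraries. Its counts were therefore halved for every interval. Its total of 15740587, which lies in the range above, and its raw counts as printed here are not halved. It had counts for 18700 genes, against 20801 to 21377 in the other libraries. Through the shared quantile normalization this library also enters the values of the other libraries. With scaling by totals, which keeps the libraries apart, the WT change between cultures had the same 4 genes higher and 4 lower, and the genotype comparison in serum/LIF again had 0 genes. Naive ESC markers had a summed level of 4262 cpm (counts scaled to the library total) in serum/LIF WT, 3868 cpm in serum/LIF Cripto KO, and 67.4 and 62.8 cpm in F/A. Primed epiblast markers summed to 169 and 185 cpm in serum/LIF WT and Cripto KO, and to 1227 and 638 cpm in their F/A cultures. General pluripotency markers summed to 2948 and 2579 cpm in serum/LIF, against 176 and 133 cpm in F/A. Because RNA was extracted from whole cultures, fewer cells of a type and less RNA per cell cannot be told apart.

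Fibroblast growth factors bind receptor tyrosine kinases that switch on Ras, Raf, MEK and ERK. ERK activity then raises transcription of the genes that hold it back. Sprouty and Spred proteins restrain the path between receptor and Raf, while the dual-specificity phosphatases remove phosphate from ERK itself, Dusp6 in the cytoplasm and Dusp4 in the nucleus. Etv4 and Etv5 are ETS factors of the PEA3 group that respond to FGF, and Egr1 is an immediate-early zinc-finger factor. In ESCs, autocrine Fgf4 drives ERK and moves cells away from the naive state, whereas EpiSCs are maintained with added FGF and Activin. When ERK is inactive, the repressor Capicua (CIC) holds down several of these genes through a short octamer.

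Promoter sequences from RefSeq (GRCm38.p6, 250 bases before to 50 after a start site) matched 6 of the 10 genes, with 7 start sites in all. Spry4, Dusp4, Etv4 and Egr1 had no sequence there, so their promoters were not searched for any motif. The deposited counts rest on another build (mm9, also called NCBIM37), and no coordinate was carried between the builds. Dusp6 and Spry2 are printed because they held the CIC octamer, here in capitals. It was searched as TGAATGAA, TGAATGGA, TCAATGAA and TCAATGGA on both strands. Spry1 and the upstream start of Etv5 are printed beside them with the GC box (GGGCGG) and the CCAAT box (CCAAT) in capitals, again on both strands. The Dusp6 promoter is chr10:99262981-99263280 on the plus strand, Spry2 chr14:105896770-105897069 on the minus strand, Spry1 chr3:37639697-37639996 on the plus strand and Etv5 chr16:22439521-22439820 on the minus strand.
Dusp6: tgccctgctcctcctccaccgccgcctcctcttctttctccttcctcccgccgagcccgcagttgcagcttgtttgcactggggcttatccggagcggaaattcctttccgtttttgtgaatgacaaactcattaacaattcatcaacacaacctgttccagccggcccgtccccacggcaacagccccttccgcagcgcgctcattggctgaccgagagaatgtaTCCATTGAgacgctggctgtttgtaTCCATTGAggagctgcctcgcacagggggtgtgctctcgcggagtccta
Spry2: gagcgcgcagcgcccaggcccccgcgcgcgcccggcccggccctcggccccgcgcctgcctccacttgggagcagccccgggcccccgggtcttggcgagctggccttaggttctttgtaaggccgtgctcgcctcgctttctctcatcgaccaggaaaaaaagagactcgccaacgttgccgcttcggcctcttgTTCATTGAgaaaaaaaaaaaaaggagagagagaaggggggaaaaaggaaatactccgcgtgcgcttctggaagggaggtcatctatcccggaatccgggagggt
Spry1: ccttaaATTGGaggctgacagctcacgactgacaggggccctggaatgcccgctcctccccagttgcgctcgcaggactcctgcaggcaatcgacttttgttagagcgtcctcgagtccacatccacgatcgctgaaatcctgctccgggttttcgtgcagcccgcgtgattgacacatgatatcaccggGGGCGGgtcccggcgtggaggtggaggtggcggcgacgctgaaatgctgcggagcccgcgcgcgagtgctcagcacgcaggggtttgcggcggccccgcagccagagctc
Etv5: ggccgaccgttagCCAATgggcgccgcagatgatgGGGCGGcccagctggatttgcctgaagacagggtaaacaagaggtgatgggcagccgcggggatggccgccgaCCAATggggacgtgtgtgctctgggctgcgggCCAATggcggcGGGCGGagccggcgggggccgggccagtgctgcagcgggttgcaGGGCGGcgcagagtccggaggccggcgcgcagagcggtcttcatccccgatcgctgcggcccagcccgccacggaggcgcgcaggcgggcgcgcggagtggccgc

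The CIC octamer occurred at positions −24 and 2 from the start site of Dusp6 and at −54 of Spry2. It was present in 2 of the 7 promoters and in 3.84% of all 32851 promoters of the same length. Dusp6 increased in F/A, and the log2 value of Spry2 in WT changed by −0.98. The CCAAT box was found in 5 of the 7 promoters (37.4% of all) and the GC box in 4 (35.7% of all). The AP-1 site TGANTCA and the CArG box were in 0 of the 7, none of which belongs to Egr1, against 7.81% and 1.63% of all promoters. The GC content of the 7 was 57.0% to 74.0%, with a median of 52.7% over all promoters. The letters are matches in these windows and were not tested as sites.

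From serum/LIF to F/A, WT cells raised 4 of the 10 genes at least 2-fold and lowered 4. Dusp4, Spry1, Spred1 and Dusp6 were higher in F/A, and Egr1, Etv5, Spry4 and Etv4 were lower. Here "higher", "lower", "raised" and "fell" are used of genes whose normalized values differed at least 2-fold, with no test behind the word. Among all 15462 genes, 22.1% were at least 2-fold higher and 20.9% at least 2-fold lower. The median log2 change of the 10 genes was −0.25 (−0.07 over all genes), but the median size of the change regardless of sign was 1.78 (0.84 over all genes). Cripto KO cells raised the same 4 genes and lowered 2, Spry4 and Etv5, beside backgrounds of 19.9% and 19.4%. The median log2 change in Cripto KO was −0.19 and the median size 1.55 (−0.07 and 0.73 over all genes). Because the set was chosen with earlier results of these data known, its sizes are not an independent comparison with all genes. The sign of the change was shared by the genotypes for 9 of the 10 genes, the exception being Spred2, whose Cripto KO change was −0.00. How many of all genes shared their sign was not computed, so this count is not a trait of the set.

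**Figure D1:**
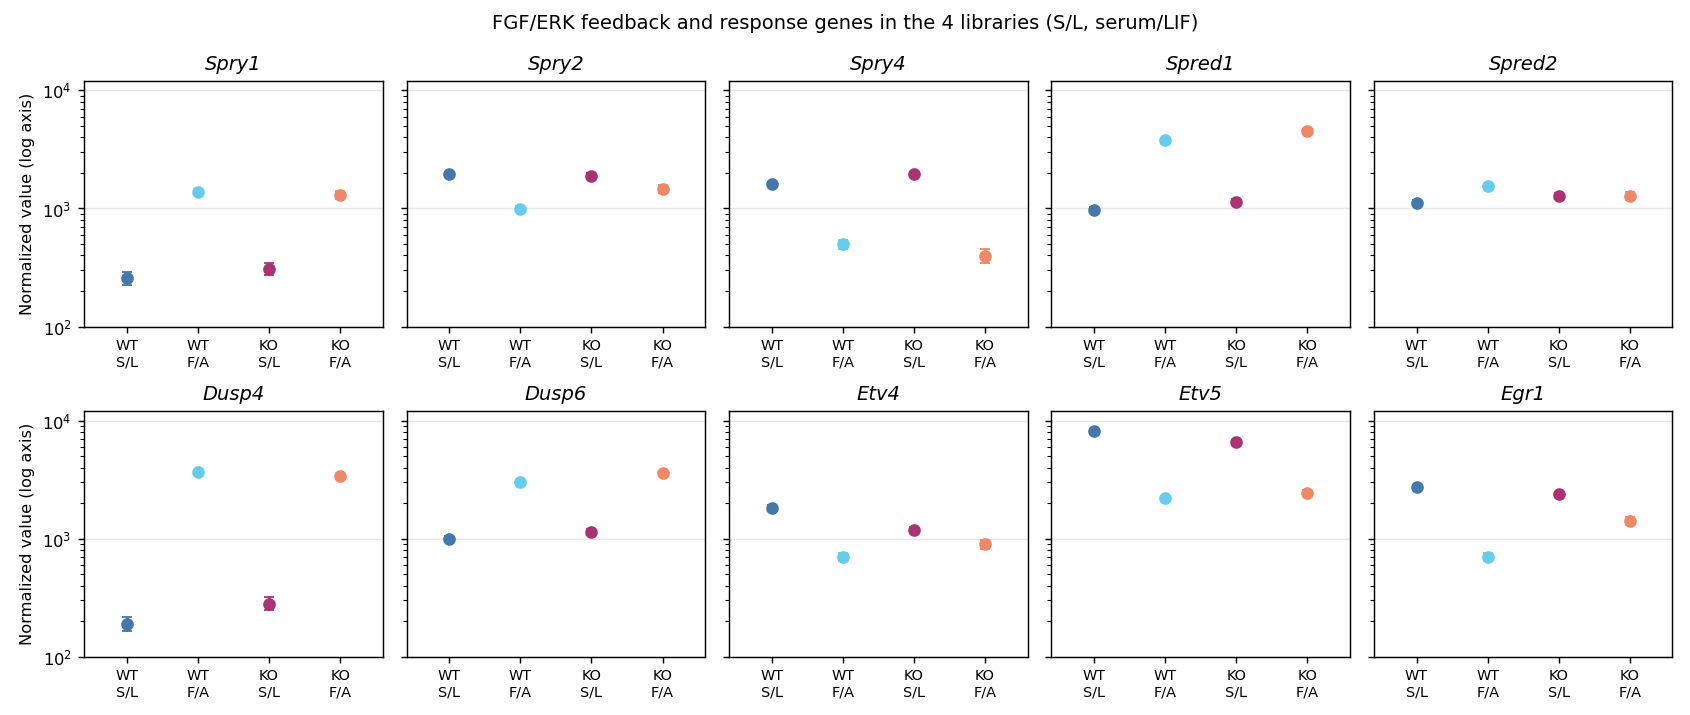
Quantile-normalized values (log axis) of the 10 genes in the 4 libraries, 1 point per library; S/L is serum/LIF, KO is Cripto KO and bars, mostly hidden by the points, are 95% counting intervals. In both genotypes the F/A points of Spry1, Spred1, Dusp4 and Dusp6 lie above the serum/LIF points and those of Spry4 and Etv5 lie below, while Egr1 in F/A stands at 701 in WT and 1406 in Cripto KO.

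The Sprouty genes split. Spry1 (ENSMUSG00000037211, NCBIM37 chromosome 3 from 37538869 to 37543520) had normalized values of 256 in serum/LIF WT, 1389 in F/A WT, 309 in serum/LIF Cripto KO and 1301 in F/A Cripto KO. Both F/A libraries lay above both serum/LIF libraries. Its ratio between cultures was 5.43 in WT (interval 4.95 to 6.44) and 4.21 in Cripto KO (3.92 to 5.19). Spry4 (ENSMUSG00000024427, chromosome 18 from 38745922 to 38760922) went the other way, with 1598 in serum/LIF WT, 497 in F/A WT, 1960 in serum/LIF Cripto KO and 399 in F/A Cripto KO. Its ratio was 0.311 in WT (0.295 to 0.362) and 0.203 in Cripto KO (0.181 to 0.244), the largest decrease of the 10 genes in Cripto KO. Spry2 (ENSMUSG00000022114, chromosome 14 from 106291166 to 106296036) stood just short of the 2-fold threshold in WT. It had 1957 in serum/LIF WT, 995 in F/A WT, 1895 in serum/LIF Cripto KO and 1461 in F/A Cripto KO. Between cultures the log2 value of Spry2 changed by −0.98 in WT and by −0.38 in Cripto KO, with ratios of 0.508 (0.50 to 0.584) and 0.771 (0.717 to 0.853).

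The Spred genes, which encode membrane-bound relatives of Sprouty that recruit neurofibromin to Ras, also differed from each other. Spred1 (ENSMUSG00000027351, chromosome 2 from 116947110 to 117008015) had 975 in serum/LIF WT, 3769 in F/A WT, 1130 in serum/LIF Cripto KO and 4549 in F/A Cripto KO. The genotypes gave nearly equal increases, with a ratio of 3.87 in WT (3.86 to 4.44) and 4.03 in Cripto KO (3.77 to 4.37). Spred2 (ENSMUSG00000045671, chromosome 11 from 19824378 to 19924029) moved least. Its values were 1113 in serum/LIF WT, 1542 in F/A WT, 1281 in serum/LIF Cripto KO and 1277 in F/A Cripto KO, all within 2-fold. The Spred2 ratio was 1.39 in WT and 0.997 in Cripto KO, where the interval of 0.944 to 1.15 included 1.

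The phosphatase genes both rose. Dusp4 (ENSMUSG00000031530, chromosome 8 from 35870351 to 35882948) had the largest change of the set, with 191 in serum/LIF WT, 3646 in F/A WT, 282 in serum/LIF Cripto KO and 3379 in F/A Cripto KO. Dusp4 increased 19.1-fold in WT (17.1 to 22.7) and 12.0-fold in Cripto KO (11.0 to 14.3), changes that exceeded those of 96.5% and 95.1% of all genes. Dusp6 (ENSMUSG00000019960, chromosome 10 from 98725865 to 98730122) had 991 in serum/LIF WT, 3030 in F/A WT, 1137 in serum/LIF Cripto KO and 3568 in F/A Cripto KO. Its increase was 3.06-fold in WT (3.03 to 3.49) and 3.14-fold in Cripto KO (2.92 to 3.40).

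The PEA3 factors had their highest normalized values in serum/LIF WT. Etv5 (ENSMUSG00000013089, chromosome 16 from 22381382 to 22439792) had 8158 in serum/LIF WT, 2213 in F/A WT, 6639 in serum/LIF Cripto KO and 2431 in F/A Cripto KO. It fell in both genotypes, to a ratio of 0.271 in WT (0.268 to 0.294) and 0.366 in Cripto KO (0.335 to 0.380). Etv4 (ENSMUSG00000017724, chromosome 11 from 101631056 to 101646685) had 1832 in serum/LIF WT, 704 in F/A WT, 1190 in serum/LIF Cripto KO and 893 in F/A Cripto KO. The highest and the lowest Etv4 value were thus both in WT. Its ratio between cultures was 0.384 in WT (0.378 to 0.450) and 0.750 in Cripto KO (0.706 to 0.881).

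Egr1 (ENSMUSG00000038418, chromosome 18 from 35020861 to 35024638) had 2756 in serum/LIF WT, 701 in F/A WT, 2392 in serum/LIF Cripto KO and 1406 in F/A Cripto KO. The serum/LIF libraries were close, and F/A WT was the lowest of the 4. Egr1 fell to a ratio of 0.254 in WT (0.250 to 0.296), whereas the Cripto KO ratio was 0.588 (0.549 to 0.651). Egr1 is the only one of the 10 genes that overlaps another annotated gene, Gm17507 on the opposite strand, which had 6 to 24 raw counts per library. Whether the counting used the strand was not stated.

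**Figure D2:**
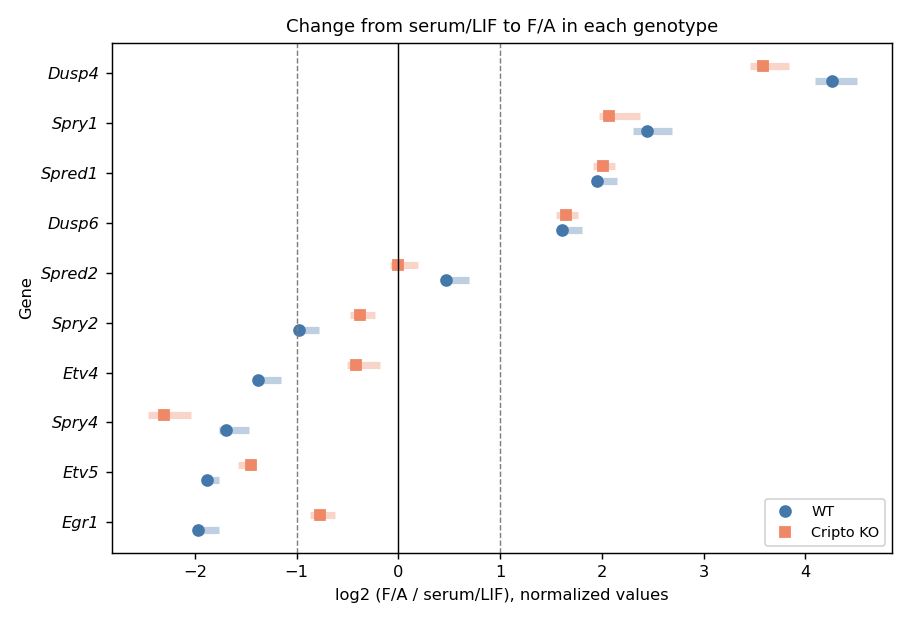
Log2 change of normalized values from serum/LIF to F/A for each gene in WT (circles) and Cripto KO (squares), with 95% counting intervals of the raw count ratio as bands and dashed lines at a 2-fold change. Dusp4, Spry1, Spred1 and Dusp6 lie beyond 1 in both genotypes, and Egr1 and Etv4 lie beyond −1 in WT alone.

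The next comparison asked how the genotypes differed within a culture. In serum/LIF, 0 of the 10 genes differed at least 2-fold between Cripto KO and WT, beside 2.86% of all genes higher and 2.73% lower (1.97% and 3.36% with scaling by totals). Log2 ratios ran from −0.62 to 0.57. Etv4 was the lowest, with a ratio of Cripto KO to WT of 0.650 (0.610 to 0.706), and Dusp4 the highest, at 1.48 (1.16 to 1.68). The interval excluded 1 for 8 genes and included it for Spry1 and Spry2. Such intervals cover counting error alone, and the share of all genes whose interval excluded 1 was not computed.

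In F/A, 1 of the 10 genes, Egr1, was at least 2-fold higher in Cripto KO and 0 were lower, beside 4.57% and 5.69% of all genes (3.70% and 7.72% with scaling by totals). Egr1 sat at the threshold, with a ratio of 2.0 from normalized values and 1.96 from raw counts scaled to library totals (1.77 to 2.19). Halving the counts of the F/A Cripto KO library before normalization left Egr1 as the 1 gene past the threshold, while DESeq2 size factors or scaling by totals put it just under. Spry2 came next, at 1.47 (1.31 to 1.59), followed by Etv4 at 1.27 (1.11 to 1.42). Spry4 and Spred2 had the lowest ratios, 0.803 (0.692 to 0.968) and 0.828 (0.738 to 0.890). The intervals of Spry1 (0.839 to 1.01) and Etv5 (0.985 to 1.14) included 1. For each of the 10 genes the F/A genotype ratio was smaller in size, on the log2 scale, than the WT change between cultures. Over all genes the median sizes were likewise 0.33 for the F/A genotype ratio and 0.84 for the WT change.

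**Figure D3:**
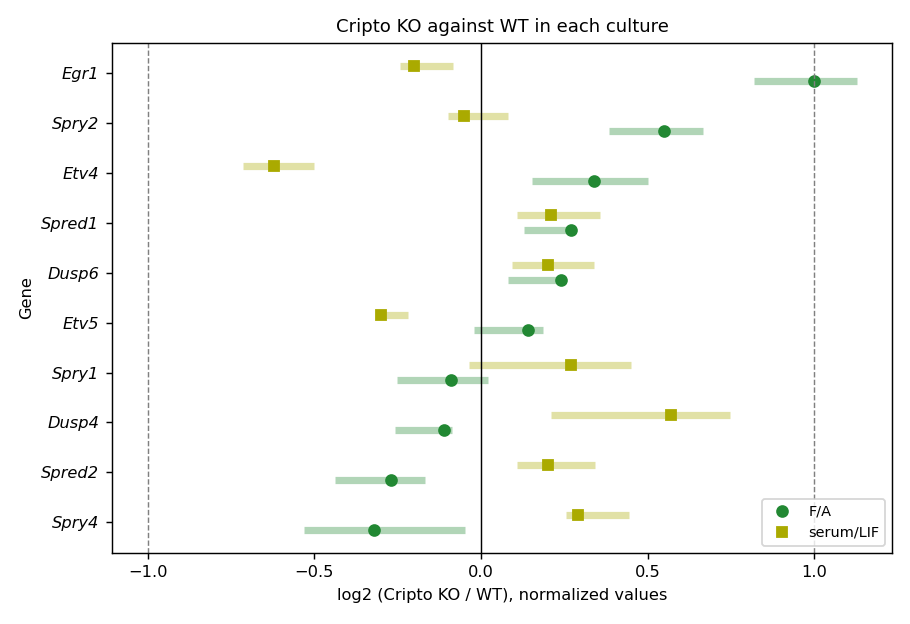
Log2 ratio of Cripto KO to WT (normalized values) in F/A (circles) and serum/LIF (squares) for each gene, with 95% counting intervals of the raw count ratio as bands and dashed lines at a 2-fold difference. Egr1 reaches the line at 1 in F/A, and Etv4 and Egr1 lie below 0 in serum/LIF and above 0 in F/A.

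The change between cultures was then compared between the genotypes, as the Cripto KO log2 change minus the WT log2 change. These comparisons share libraries with those above, so they restate the same 4 values per gene. The difference reached 1 for 1 gene, Egr1 (1.21, counting SE 0.09), beside 7.68% of all genes, and −1 for 0 genes, beside 9.38%. Etv4 (0.96, SE 0.10) was just inside the threshold, and Spry2 (0.60, SE 0.08) and Etv5 (0.43, SE 0.06) were also positive. All 4 of these genes had lower values in F/A than in serum/LIF, with the larger decrease in WT. Dusp4 had the most negative difference (−0.68, SE 0.14), followed by Spry4 (−0.61, SE 0.13) and Spred2 (−0.47, SE 0.09). Spry1 had −0.37 (SE 0.14). Dusp6 (0.04, SE 0.08) and Spred1 (0.06, SE 0.07) had differences smaller than their counting error. The size of the change was larger in WT for 7 genes and in Cripto KO for 3, Spry4, Spred1 and Dusp6. Over all genes the median size was also larger in WT (0.84, against 0.73 in Cripto KO).

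Other features also moved with genotype in F/A. Trophoblast markers (7 listed, of which Elf5 was at or under 3 counts in every library) summed to 89.6 cpm for WT and 228 cpm for Cripto KO in F/A, fibroblast markers to 82.7 and 237 cpm, and mesoderm markers to 44.5 and 103 cpm. Primitive endoderm markers summed to 225 and 284 cpm, and neural markers to 322 and 303 cpm. Hand1 and Krt7, the trophoblast markers with the most raw counts, had F/A log2 ratios of 3.15 and 0.04. The trophoblast sum therefore does not stand for each of its genes. Among markers that passed the filter, some were at least 2-fold higher in the F/A culture of Cripto KO cells, beside 4.57% of all genes. They were 4 of 6 for trophoblast, 4 of 6 for fibroblasts and 2 of 6 for mesoderm. For primitive endoderm and neural cells they were 0 of 6 and 1 of 4. Some of these calls rest on few raw counts. Zic1, the neural marker, rose from 5 (WT) to 22 (Cripto KO, not halved), Dcn from 5 to 18 and Plac1 from 19 to 48. The intervals of their raw ratios were wide, 1.36 to 15.6 for Zic1 and 1.05 to 13.2 for Dcn. At least 2-fold lower in Cripto KO were 3 of 6 primed epiblast, 1 of 6 primitive endoderm and 1 of 6 mesoderm markers. So were 1 of 7 naive markers and 1 of 3 general pluripotency markers, beside 5.69% of all genes. The sums can therefore hide members that went opposite ways. The part of these markers in the F/A genotype ratios of Egr1, Spry2 and Etv4 was not tested. Transcript length was taken into account over all genes. Subtracting a running median over length from the difference left Egr1 at 1.24 and moved Spry4 from −0.61 to −0.32 and Spred1 from 0.06 to 0.30.

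Levels were compared between genes as RPKM, the cpm of a gene divided by the kilobases of its longest annotated transcript. In serum/LIF WT the order ran from Etv5 (127) through Spry2 (56.8), Egr1 (53.6), Etv4 (45.9), Dusp6 (21.3), Spry4 (20.9), Spred2 (14.9), Spred1 (9.73) and Spry1 (5.71) to Dusp4 (4.32). Dusp6 and Spry4 could not be separated by counting error (ratio 1.02, 0.942 to 1.10). In F/A WT the order was Dusp4 (85.0), Dusp6 (69.2), Spred1 (40.2), Etv5 (35.5), Spry1 (32.2), Spry2 (30.7), Spred2 (22.4), Etv4 (18.9), Egr1 (14.6) and Spry4 (6.83). Spry1 and Spry2 could not be separated there. Dusp4 thus moved from rank 10 to rank 1, while the level summed over the 10 genes was 360 and 355.

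Serum/LIF Cripto KO also opened with Etv5 (105), Spry2 (56.5), Egr1 (47.8) and Etv4 (30.1), and Dusp4 (6.02) was again last, although its level could not be separated from that of Spry1 (6.59). Spry4 (26.6) and Dusp6 (24.7) were also within counting error, followed by Spred2 (17.4) and Spred1 (11.4). In F/A Cripto KO, Dusp6 (77.8) and Dusp4 (75.4) led and did not differ beyond counting error. Spred1 (46.3) and Spry2 (44.2) came next and could not be separated, then Etv5 (37.6), Spry1 (29.7), Egr1 (28.6), Etv4 (23.8), Spred2 (18.1) and Spry4 (5.60). Egr1 and Spry1 could not be separated. The order depended on the transcript chosen, most of all for Etv4, whose median annotated length was 670 nucleotides and longest 2395. With median lengths, a choice made after seeing the data, Etv4 moved from rank 8 to rank 3 in WT and to rank 1 in Cripto KO in F/A. Other neighbours also changed places, as Etv5 (66.2) and Spred1 (64.9) did in F/A WT and Spred2 (23.3) and Dusp6 (21.3) in serum/LIF WT.

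**Figure D4:**
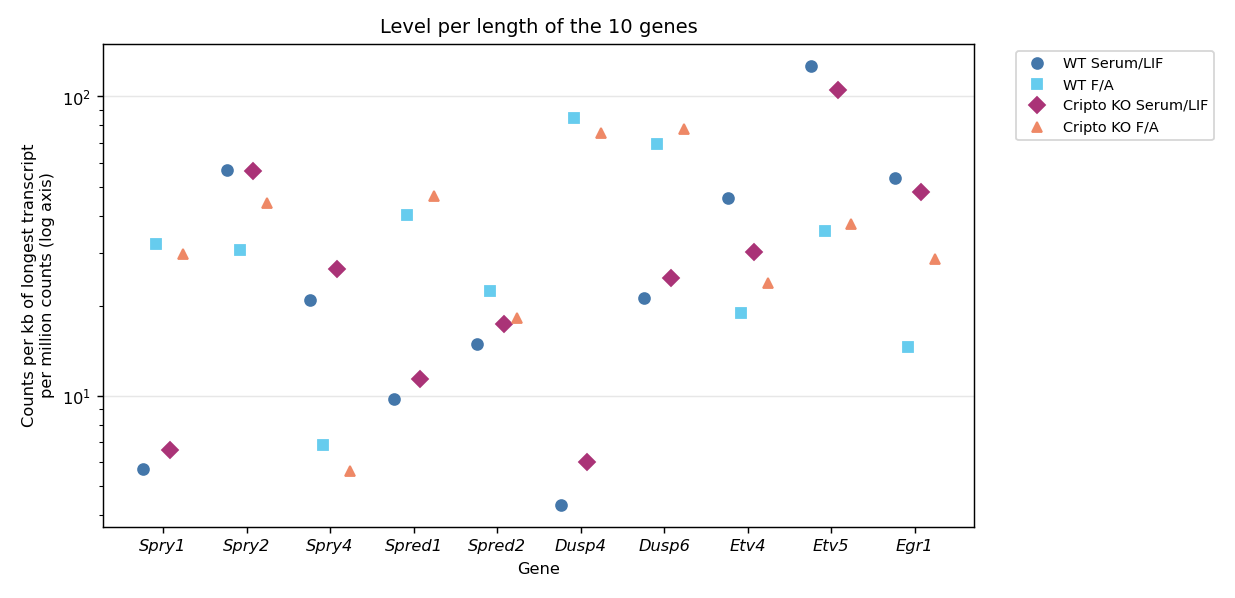
RPKM, cpm per kilobase of the longest annotated transcript (log axis), for the 10 genes, 1 point per library. Dusp4 runs from 4.32 in serum/LIF WT to 85.0 in F/A WT, and Spry4 is the lowest gene in both F/A libraries.

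The rest of the pathway was taken from fixed lists. Of 16 further family members and feedback genes, 15 were found and 14 passed the filter. WT cells had 10 of the 14 higher in F/A, 0 lower and 4 within 2-fold, with a median log2 change of 1.89. The counts were the same in Cripto KO, with a median of 1.33. Among all genes 22.1% were higher and 20.9% lower in WT, against 19.9% and 19.4% in Cripto KO. Flrt3, a transmembrane protein that promotes FGF signalling, went from 49 to 1229 raw counts in WT and from 22 to 758 in Cripto KO, log2 changes of 4.90 and 5.14. Dusp10, a phosphatase that prefers the stress kinases, went from 43 to 277 and from 32 to 232, changes of 2.96 and 2.83. None of the 14 had a difference between the genotypes' changes of 2-fold, beside 7.68% of all genes higher and 9.38% lower.

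Of 26 FGF ligands and receptors, 20 passed the filter. In WT 10 were higher and 6 lower in F/A (median log2 change 1.0), and in Cripto KO 11 were higher and 6 lower (1.19). The shares of all genes were 22.1% higher and 20.9% lower in WT, and 19.9% and 19.4% in Cripto KO. Fgf4, the autocrine ESC ligand, went from 3293 to 15 raw counts in WT and from 2549 to 24 in Cripto KO. Fgf8 had 2 counts in each serum/LIF library, against 1256 (WT) and 1066 (Cripto KO) in F/A. Fgf5, a primed epiblast gene, had 3 and 1 counts in serum/LIF, against 2206 (WT) and 394 (Cripto KO) in F/A. The receptor gene Fgfr3 went from 114 to 519 counts in WT and from 67 to 960 in Cripto KO, a difference between the log2 changes of 1.43. Fgfr2 had the opposite difference, −1.21, with 129 and 1071 counts in WT and 167 and 690 in Cripto KO. Between the genotypes in F/A, 5 of the 20 were at least 2-fold higher in Cripto KO and 3 lower, beside 4.57% and 5.69% of all genes. Fgf15 was among the higher, with 49 and 45 counts in WT and 112 and 258 in Cripto KO, an F/A log2 ratio of 2.46.

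All 23 genes of the ERK cascade passed the filter. In WT 7 were higher and 2 lower in F/A (median log2 change 0.07), and in Cripto KO 4 were higher and 1 lower (0.25), beside the shares of all genes given above for each genotype. None differed 2-fold between the genotypes in either culture. Of all genes, 2.86% were higher and 2.73% lower in serum/LIF, and 4.57% and 5.69% in F/A. Braf, which encodes a Raf kinase, changed by 1.87 in WT and by 0.93 in Cripto KO on the log2 scale, and Frs2, the docking protein of FGF receptors, had 1.61 and 0.95. Sos2, a Ras exchange factor, changed by 1.57 in WT and by 1.83 in Cripto KO, and the kinase gene Rps6ka3 by 1.48 and 1.38. Braf and Frs2 were picked as the largest increases in WT, and Sos2 and Rps6ka3 as the largest in Cripto KO. Their order of the genotypes therefore does not stand for the other higher genes. Gab1, an adaptor, fell by 1.99 and by 2.14 on the log2 scale. Frs3 changed by −1.37 in WT and by −0.97 in Cripto KO. Among 18 immediate-early genes that passed, 8 were higher and 3 lower in WT (median 0.53), and 7 and 2 in Cripto KO (0.61). Beside them, 22.1% and 20.9% of all genes were higher and lower in WT, and 19.9% and 19.4% in Cripto KO. Klf6 had log2 changes of 3.30 and 2.29, Ier5 of 2.84 and 2.96, and Jun of 2.20 and 2.46.

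The immediate-early gene Ier2 had 2166 raw counts in serum/LIF WT, 964 in F/A WT, 1837 in serum/LIF Cripto KO and 1916 in F/A Cripto KO. Like Egr1, it was lowest in F/A WT. Its log2 ratio of Cripto KO to WT in F/A was 1.01. From raw counts scaled to library totals the ratio was 1.92 (1.76 to 2.11), just under 2-fold. By normalized values it was the only 1 of the 18 immediate-early genes past 2-fold in that comparison, beside 4.57% of all genes higher. The difference between the genotypes' changes was 1.19 for Ier2, the 1 immediate-early gene past 2-fold in that direction. Klf6 was the 1 past 2-fold in the other direction, at −1.0. Over all genes 7.68% and 9.38% passed these 2 thresholds. Fos had 329, 86, 358 and 166 counts in the same order and an F/A log2 ratio of 0.93, inside the threshold.

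**Figure D5:**
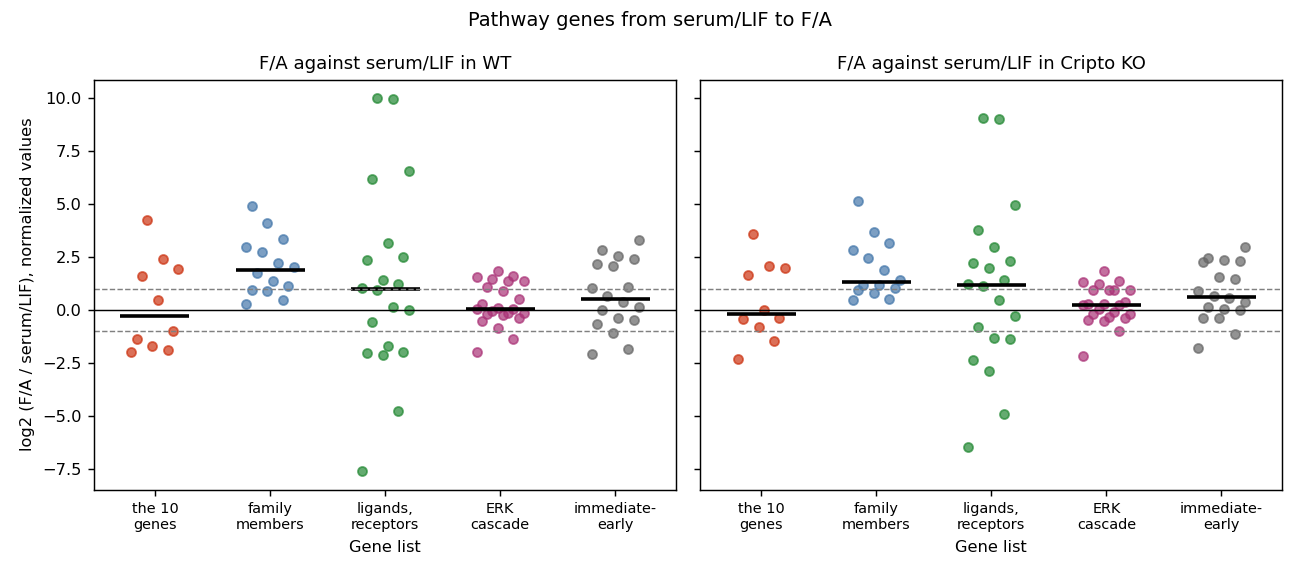
Log2 change of normalized values from serum/LIF to F/A in WT (left) and Cripto KO (right) for the 10 genes and 4 further lists, 1 point per gene that passed the filter, with bars at the medians and dashed lines at a 2-fold change. The 14 family members all lie above 0 in both genotypes, whereas the 10 genes lie on both sides.

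The gene most like each member was taken as the protein-coding gene with the smallest distance between the 4 centred log2 values, among 9356 genes with a mean of at least 200 raw counts. The closest match was Atp1b2 to Etv4 (distance 0.0168 in log2 units), followed by Tor3a to Spred2 (0.0258), Rps13-ps1 to Spry2 (0.0336) and Zadh2 to Spred1 (0.0389). Igf2bp3 was nearest to Dusp6 (0.0521), Rest to Spry4 (0.0583), Ankrd50 to Spry1 (0.0758), Dll3 to Dusp4 (0.0783) and Pkn3 to Etv5 (0.0836). Cox4i1 was nearest to Egr1, at 0.113. Rps13-ps1 is a copy of a ribosomal protein gene, and its counts are uncertain. Within the set the nearest pairs were Spred1 and Dusp6 (0.350) and Spry1 and Spred1 (0.381). These likenesses rest on 4 libraries and describe patterns alone.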

How the data were processed

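Total RNA was sequenced from 4 libraries, 1 per condition. The authors aligned reads to mm9 with TopHat2 2.0.13 and deposited raw counts per gene from htseq-count (HTSeq 0.6.1p1, Ensembl 67). Whether counting used strand was not stated. The deposited normalized signal is the authors' full quantile normalization of genes that passed a filter at 1 cpm, and a recomputation gave the same values within 0.5% for 100% of them. Names and coordinates came from the NCBIM37 annotation (Ensembl 65), which named 15424 of the 15462 kept genes.

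The normalized values, with 0.5 in place of 0, gave the log2 changes, and 2-fold or more counted as a call. The study's simulated-library probability was not used. Ratios of raw counts scaled to totals carry 95% Clopper-Pearson intervals, with F/A Cripto KO counts halved. The detection limit was 3 counts per library, and 6 in the F/A library of Cripto KO. Conditions were compared without p-values. Levels per length used the longest annotated transcript. Named genes were all 10 members, Tdgf1, for each pathway list, direction and comparison up to 2 called genes of the largest log2 change (minimum 200 raw counts in the higher of the libraries), up to 2 markers per marker list, and the gene nearest to each member. Members and lists were chosen with earlier results of these data known. Alternatives were scaling by totals, edgeR 4.0.16 TMM factors, DESeq2 1.42.0 size factors, halved counts, 5 added to every value, other filters, removal of the length trend or the median, and folds of 1.5 and 3. The scripts were tested on simulated data. Python 3.11.15, R 4.3.3, numpy 2.4.6, pandas 2.3.3 and scipy 1.17.1 were used.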

Additional observations from a re-analysis of the deposited data

Results flagged for a closer look

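For 5 of the 10 genes the Cripto KO to WT ratio lay on opposite sides of 1 in the 2 cultures, with both counting intervals excluding 1. The share of all genes that do so was not computed, so the count describes these genes alone. The log2 ratio of Egr1 was −0.20 in serum/LIF and 1.0 in F/A, a difference of 1.21. Etv4 had −0.62 and 0.34, a difference of 0.96. Dusp4 had 0.57 and −0.11 (difference −0.68), Spry4 0.29 and −0.32 (−0.61), and Spred2 0.20 and −0.27 (−0.47). With 1 library per condition none of these differences was tested.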

How the results depend on the processing

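No paired analysis was possible because each condition had 1 library, and for the same reason no library could be left out within a condition. The number of genes past the fold stayed at 8 in WT and 6 in Cripto KO for the change between cultures under every alternative except the folds, which gave 9 and 7 at 1.5 and 7 and 5 at 3. For Cripto KO against WT in serum/LIF, 0 genes became 1 (Etv4) at a fold of 1.5. In F/A, the 1 gene (Egr1) became 0 with scaling by totals, with DESeq2 size factors, with 5 added to every value and at a fold of 3, and its log2 ratio ranged from 0.97 to 1.03. For the difference between the genotypes' changes, 1 gene became 5 at a fold of 1.5 (Spry2, Spry4, Dusp4, Etv4 and Egr1) and 0 at a fold of 3. Of 450 single values under the alternatives, 435 moved by less than their counting error, and 13, none of them past the fold, had the opposite sign. The cause of these shifts was not tested. The 435 include the values under the other filters, which could not move because every member gene passed those filters. For the same reason the other filters could not change the number of genes past the fold. Counts were low for Spry1 and Dusp4 in serum/LIF, with 205 to 297 raw counts, and for Spry4 in F/A Cripto KO, whose 404 raw counts were halved for its intervals.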

Other observations

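Among the family members with few counts, Dusp2 and Egr2 were at least 2-fold higher in Cripto KO than in WT in both cultures by normalized values, and both were chosen after their values were seen. Dusp2, a nuclear phosphatase of ERK, had 4 raw counts in serum/LIF WT, 29 in F/A WT, 11 in serum/LIF Cripto KO and 134 in F/A Cripto KO. Its raw ratio of Cripto KO to WT was 4.47 in F/A (interval 2.85 to 7.17) and 2.93 in serum/LIF, where the interval of 0.868 to 12.6 included 1. Egr2, a relative of Egr1, had 25, 38, 47 and 108 counts in the same order, with ratios of 2.75 in F/A (1.78 to 4.28) and 2.0 in serum/LIF (1.21 to 3.39).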
